A study of Mus musculus with 11 samples.

Results

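Genes of the endoplasmic reticulum (ER) stress response and of protein folding in the ER were followed in mouse embryonic stem cells (ESCs) and embryoid bodies (EBs) that lack or carry Mettl3. The 10 genes are Xbp1, Atf4, Ddit3, Hspa5, Hsp90b1, Dnajb9, Sdf2l1, Pdia4, Pdia6 and Herpud1. They were taken by symbol from 39179 gene identifiers in the count table, without regard to their values, and each symbol matched 1 identifier. All 10 passed the filter on low values that left 15781 genes to be tested.

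The Mettl3 protein carries the enzymatic activity by which N6-methyladenosine is placed on messenger RNA, and the study asked how its loss affects the passage of ESCs from naive pluripotency to differentiation. All groups are labelled C57BL/6 and untreated. The Mettl3-KO ESCs and the WT ESCs have 3 libraries each, with the replicate letters A, B and C, and grew without serum in a medium that held LIF, the GSK3 inhibitor CHIR99021 and the MEK inhibitor PD0325901. The Mettl3-KO EBs and the WT EBs have 2 libraries each, A and B, and are aggregates of ESCs grown without attachment, with serum and without those factors named, for 8 to 21 days. Which day applies to which EB library, how the knockout was made and how many clones it comes from are not given in the sources used here. The labels call the libraries biological replicates. A library of WT embryonic fibroblasts is not analysed here.

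Proteins that enter the secretory pathway fold in the ER with the help of chaperones and of enzymes that form disulfide bonds. When unfolded proteins accumulate, the membrane sensors IRE1, PERK and ATF6 start the unfolded protein response: IRE1 splices the Xbp1 transcript into a form that encodes an active transcription factor, PERK slows translation and thereby raises production of the transcription factor ATF4, and ATF6 is cleaved to release a transcription factor of its own. Together these factors raise chaperones, folding enzymes and the machinery that returns misfolded proteins to the cytosol for degradation, and under lasting stress the ATF4 target Ddit3, which encodes CHOP. Secretory cells, among them the extraembryonic endoderm that lays down basement membrane, use this machinery heavily. The counts are per gene, so they do not separate spliced from unspliced Xbp1, and they say nothing of ATF4 or ATF6 protein.

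Mettl3 counts matched the genotype labels, with 138, 133 and 131 normalized counts in the KO ESCs against 422, 392 and 425 in the WT ESCs, and 154 and 147 in the KO EBs against 399 and 368 in the WT EBs. The 2 ESC libraries of replicate C, which per the labels were measured alongside a SILAC protein assay, stood apart. They held 3026837 and 3075007 reads in genes, against 8523027 to 15426894 in the other 8 libraries. In the KO ESCs 51.2% and in the WT ESCs 49.6% of tested genes differed by more than 1 on the log2 scale between C and the mean of A and B. The defining pluripotency markers were present in the ESCs, with sums over 12 markers of 47857 to 54665 in the KO libraries and 37703 to 79992 in the WT libraries. Sums over 12 fibroblast markers were 13518 and 13631 in A and B of the KO ESCs and 8860 and 8896 in A and B of the WT ESCs, but 605 in C of the KO ESCs and 385 in C of the WT ESCs. Results are therefore given with all libraries, with the replicate letter as a block in the fit (a term that takes out what libraries of the same letter share), and without the replicate C libraries. For KO against WT and for the difference of the KO effects the letters were blocked within ESCs and within EBs. For EBs against ESCs the letters were shared by both cell states, so that the blocked value is close to the comparison at A and B, since EBs have no C, and the labels do not say that an ESC and an EB library of 1 letter belong together. Normalized counts were compared as log2(count + 1) with limma, adjusted p is by Benjamini-Hochberg over all 15781 genes, and calls use a threshold of 0.05.

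The promoters of the 10 genes were read to show which carry the sequence motifs through which the unfolded protein response is known to act. All 10 matched a RefSeq promoter of the GRCm38.p6 assembly, running from 250 bases before to 50 bases after the annotated start. The ER stress response element, CCAAT and CCACG with 9 bases of any kind between them, is bound by ATF6 and by spliced XBP1 with partners, and its full letters were found on either strand in the promoters of Hspa5, Hsp90b1 and Pdia6, and in 0.119% of 32851 promoters. The related ERSE-II, ATTGG and CCACG with 1 base of any kind between them, was found in Herpud1 and in 0.0365% of promoters. The core of the C/EBP-ATF response element, TGATGNAAN, was also found in Herpud1 and in 3.95% of promoters. The core of the unfolded protein response element, TGACGTGG, was in none of the 10 and in 0.676% of promoters. The windows are shown for the 4 genes with a match and for Pdia4, the other disulfide isomerase, which had none. Capitals mark the motif matches, each sequence runs 5′ to 3′ on the gene's strand, and a match is a match of letters, not a measured binding site.
Hspa5 (chr2:34771840-34772139, plus strand): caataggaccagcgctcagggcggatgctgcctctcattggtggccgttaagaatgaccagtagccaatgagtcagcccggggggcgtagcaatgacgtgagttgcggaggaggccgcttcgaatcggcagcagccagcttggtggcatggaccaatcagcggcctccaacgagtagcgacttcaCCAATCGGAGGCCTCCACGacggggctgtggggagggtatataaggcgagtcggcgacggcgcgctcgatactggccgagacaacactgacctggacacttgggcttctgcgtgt
Hsp90b1 (chr10:86705395-86705694, minus strand): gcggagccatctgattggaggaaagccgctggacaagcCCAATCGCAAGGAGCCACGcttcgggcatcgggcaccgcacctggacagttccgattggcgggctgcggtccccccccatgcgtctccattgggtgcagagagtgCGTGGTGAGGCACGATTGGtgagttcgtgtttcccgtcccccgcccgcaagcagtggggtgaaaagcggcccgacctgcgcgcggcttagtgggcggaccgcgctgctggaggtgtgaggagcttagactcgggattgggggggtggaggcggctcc
Pdia6 (chr12:17266339-17266638, plus strand): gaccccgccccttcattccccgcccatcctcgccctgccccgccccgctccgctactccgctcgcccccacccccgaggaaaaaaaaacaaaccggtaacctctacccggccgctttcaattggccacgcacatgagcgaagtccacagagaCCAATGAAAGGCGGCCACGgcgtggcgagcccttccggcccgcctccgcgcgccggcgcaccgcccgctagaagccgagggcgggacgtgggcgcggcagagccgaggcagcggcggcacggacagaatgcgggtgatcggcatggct
Herpud1 (chr8:94386179-94386478, plus strand): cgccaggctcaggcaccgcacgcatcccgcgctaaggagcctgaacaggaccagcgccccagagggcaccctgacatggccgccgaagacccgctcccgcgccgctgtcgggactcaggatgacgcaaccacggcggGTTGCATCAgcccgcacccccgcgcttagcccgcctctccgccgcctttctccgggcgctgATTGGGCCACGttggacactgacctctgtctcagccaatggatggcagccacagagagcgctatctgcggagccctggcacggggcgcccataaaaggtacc
Pdia4 (chr6:47813463-47813762, minus strand): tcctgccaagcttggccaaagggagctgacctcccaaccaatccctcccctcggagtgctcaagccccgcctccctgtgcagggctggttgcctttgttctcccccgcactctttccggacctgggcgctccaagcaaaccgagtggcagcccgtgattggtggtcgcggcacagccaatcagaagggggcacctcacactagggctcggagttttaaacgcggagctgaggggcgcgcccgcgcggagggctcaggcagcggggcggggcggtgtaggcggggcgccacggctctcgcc
Counting the RefSeq start base as 0, the element lies at -65 to -47 in Hspa5. Hsp90b1 holds it at -212 to -194 on the gene's strand and again at -107 to -89 on the opposite strand, and Pdia6 at -98 to -80. In Herpud1 the ERSE-II lies at -52 to -42 and the C/EBP-ATF core at -113 to -105 on the opposite strand. As the values below show, Hsp90b1 and Pdia6 were lower in both KO than in both WT EB libraries, as were 38.9% of all tested genes. The Hspa5 ranges of these groups overlapped, and none of these genes was called there with all libraries. Between EBs and ESCs, Hspa5 and Hsp90b1 rose in both genotypes with the replicate block, and Pdia6 was not called. That fit called 28.2% of all genes in KO and 28.5% in WT. With all libraries limma called none of these genes. The sign of the Hsp90b1 difference varied, at -0.29 to 0.42 in KO and -0.17 to 0.34 in WT with single libraries left out. The part of the element in these values was not tested.

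Xbp1 encodes the transcription factor that IRE1 activates by splicing (chr11:5520659-5525893, plus strand, GRCm38). It had 378, 324 and 542 normalized counts in replicates A, B and C of the KO ESCs, against 851, 784 and 672 in the WT ESCs. The KO EBs had 1282 and 1227 normalized counts, against 1742 and 1766 in the WT EBs. Every KO library was lower than every WT library in both cell states, and every EB library was higher than every ESC library of its genotype. The mean was 415 ± 113 normalized counts in the KO ESCs and 769 ± 90.2 in the WT ESCs (SD, n = 3 each). The log2 difference of -0.92 (SE 0.21), 53.0% of WT when turned back from the log2 scale, did not pass with all libraries (limma, adjusted p = 0.0642). It passed with the replicate block (adjusted p = 0.0273), without the C libraries (-1.22, SE 0.09, adjusted p = 1.4e-05) and with DESeq2 (adjusted p = 0.00186). In EBs the mean was 1254 ± 38.9 in KO and 1754 ± 16.5 in WT (SD, n = 2 each), a log2 difference of -0.48 (SE 0.25, adjusted p = 0.482).

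Between EBs and ESCs, Xbp1 was the single gene of the 10 to pass in either genotype in limma with all libraries and no block, and DESeq2 also called Herpud1 in WT (adjusted p = 0.0267). Xbp1 rose by 1.63 (SE 0.23, limma adjusted p = 0.0328) in KO EBs against KO ESCs and by 1.20 (SE 0.23, limma adjusted p = 0.0439) in WT EBs against WT ESCs. Turned back from the log2 scale these are 3.09-fold and 2.29-fold. Both calls are close to the threshold. The call in WT was lost when any library but replicate C of the KO ESCs was left out, the call in KO when any library but either replicate C was, and the adjusted p reached 0.433 in KO and 0.369 in WT. With the replicate block the adjusted p was 0.00325 in KO and 0.00802 in WT. Xbp1 lies on chromosome 11, where the median KO minus WT log2 difference over 1344 genes was -0.23 in ESCs and -0.44 in EBs, against -0.02 over all genes in both. With each chromosome centred on its own median, the KO minus WT difference of Xbp1 was -0.69 (adjusted p = 0.221) in ESCs and -0.05 (adjusted p = 1.00) in EBs, and the rise in EBs over ESCs was 1.57 (adjusted p = 0.0549) in KO and 0.92 (adjusted p = 0.171) in WT. The part of the chromosome in the Xbp1 values was not tested further.

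**Figure D1:**
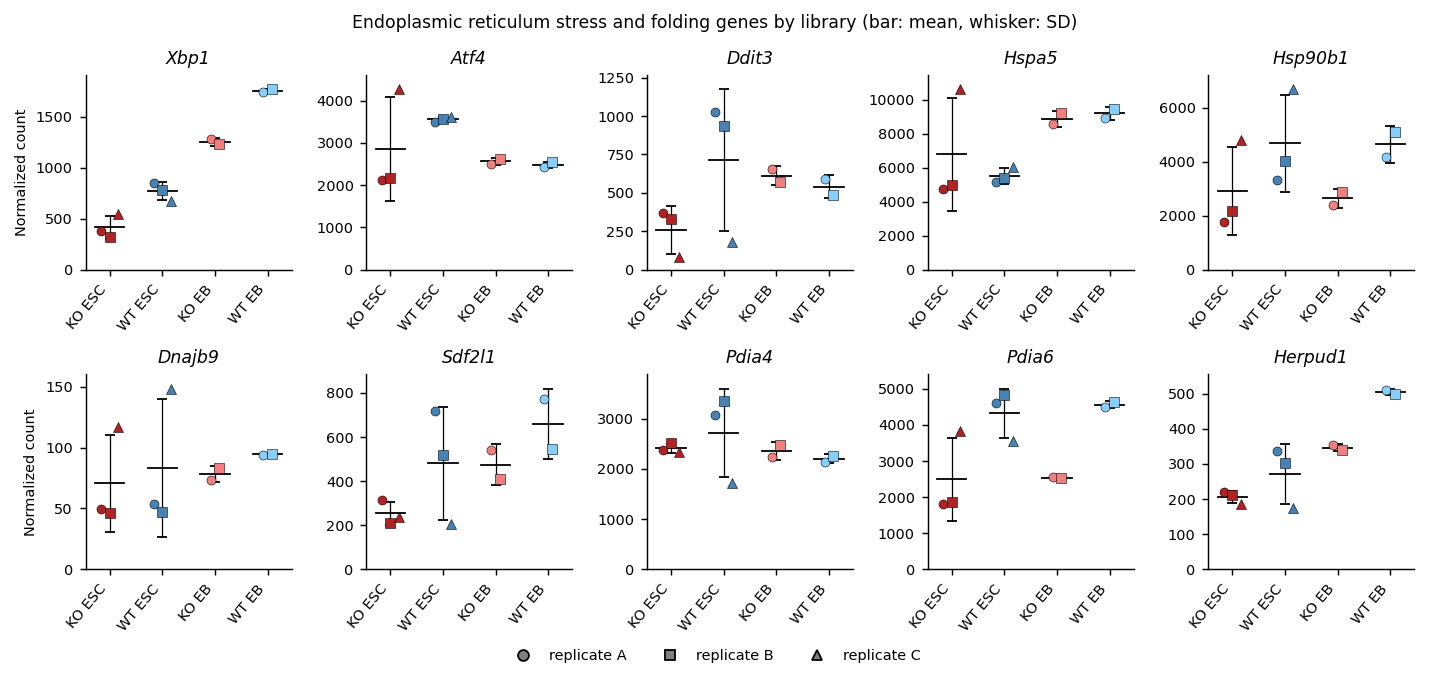
Normalized counts of the 10 genes in each of the 10 libraries, in the order KO ESC, WT ESC, KO EB and WT EB (points, marked by replicate letter), with the group mean (bar) and SD (whisker, n = 3 in ESCs and n = 2 in EBs). The Xbp1 points of KO lie below those of WT in both cell states, and the replicate C triangles of Ddit3 lie far below A and B in both ESC groups.

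Atf4 encodes the transcription factor whose translation rises when PERK or a related kinase phosphorylates the initiation factor eIF2 (chr15:80255184-80257541, plus strand). Its counts were 2109, 2167 and 4274 in A, B and C of the KO ESCs, against 3495, 3561 and 3614 in the WT ESCs, and 2503 and 2615 in the KO EBs against 2431 and 2536 in the WT EBs. The KO ESC libraries A and B were lower than all WT ESC libraries and C was higher, so the groups overlapped, as they did in EBs. KO against WT, the log2 difference in ESCs was -0.40 (SE 0.27, adjusted p = 0.543), and the difference for EBs was 0.04 (SE 0.33, adjusted p = 1.00). Without the C libraries Atf4 fell in the KO ESCs (-0.72, SE 0.07, adjusted p = 3.73e-05), and the EB value stayed at 0.04 (SE 0.07, adjusted p = 0.609). All WT EB libraries were lower than all WT ESC libraries (-0.52, SE 0.30, adjusted p = 0.511), whereas KO EBs and KO ESCs overlapped (-0.07, SE 0.30, adjusted p = 0.911).

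Ddit3, which encodes the stress-induced transcription factor CHOP (chr10:127290774-127296288, plus strand), differed most between the replicates of a group. The KO ESCs had 367, 331 and 80.5 normalized counts in A, B and C, against 1024, 936 and 181 in the WT ESCs. The KO EBs had 654 and 568, against 593 and 487 in the WT EBs. Within each letter the KO ESC library was lower, at 35.9%, 35.3% and 44.5% of its WT partner in A, B and C, while replicate C was 4.33 times lower than the mean of A and B in KO and 5.41 times lower in WT. The groups overlapped in ESCs and in EBs. With all libraries the KO minus WT log2 difference in ESCs was -1.38 (SE 0.78, adjusted p = 0.456), and with the replicate block the same difference passed (SE 0.10, adjusted p = 0.00355), as it did without C (-1.49, SE 0.12, adjusted p = 2.02e-05). In EBs it was 0.18 (SE 0.96, adjusted p = 1.00).

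The Ddit3 difference between KO and WT was called as unequal in EBs and ESCs with the replicate block and without C, but not with all libraries. The difference of the KO effects, EBs minus ESCs, was 1.56 on the log2 scale, with an adjusted p of 1.00 with all libraries (SE 1.24), 0.0119 with the replicate block (SE 0.16) and 0.000145 without C (1.67, SE 0.17). For this difference the blocked fit called 7.79% of all tested genes, and the fit without C called 16.3% higher. Neither edgeR nor DESeq2 called Ddit3 here. From ESCs to EBs the gene moved in opposite directions in the blocked fit, by 0.75 (SE 0.10, adjusted p = 0.00409) in KO and by -0.81 (SE 0.10, adjusted p = 0.00286) in WT. With all libraries these were 1.50 (SE 0.88, adjusted p = 0.529) in KO and -0.05 (SE 0.88, adjusted p = 0.981) in WT. Of the Ddit3 exons 3.97% overlap Mars on the other strand and 6.13% a second gene model of the same name, and reads of the 2 strands were not told apart.

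Hspa5 encodes BiP, the main Hsp70 chaperone of the ER and the protein that holds the stress sensors inactive (chr2:34771970-34777547, plus strand). It had 4774, 4981 and 10637 normalized counts in A, B and C of the KO ESCs, against 5140, 5390 and 6051 in the WT ESCs, and 8559 and 9215 in the KO EBs against 8949 and 9480 in the WT EBs. Genotypes overlapped in both cell states, and C of the KO ESCs was the highest of all 10 libraries. The KO minus WT log2 difference was 0.20 (SE 0.30, adjusted p = 0.890) in ESCs with all libraries and -0.11 (SE 0.07, adjusted p = 0.215) without C, and -0.05 in EBs (SE 0.37, adjusted p = 1.00). In the fit without C the EB difference had an SE of 0.07 (adjusted p = 0.563). The gene differed more by cell state: WT EBs were all above WT ESCs (0.74, SE 0.33, adjusted p = 0.371), and with the replicate block Hspa5 rose in EBs of KO (0.71, SE 0.21, adjusted p = 0.0495) and of WT (0.96, SE 0.21, adjusted p = 0.0186).

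Hsp90b1 encodes GRP94, the Hsp90 chaperone of the ER (chr10:86690209-86705509, minus strand). The KO ESCs had 1782, 2161 and 4794 normalized counts in A, B and C, against 3301, 4033 and 6690 in the WT ESCs, and the KO EBs had 2388 and 2887 against 4155 and 5115 in the WT EBs. KO was lower in each of the 5 letter pairs, at 53.6% to 71.7% of WT in ESCs and 57.5% and 56.4% in EBs, and replicate C was the highest of its group in both genotypes. The log2 difference was -0.76 (SE 0.41, adjusted p = 0.422) in ESCs and -0.81 (SE 0.50, adjusted p = 0.591) in EBs with all libraries. With the replicate block Hsp90b1 fell in the KO ESCs (SE 0.10, adjusted p = 0.00797) as well as the KO EBs (SE 0.12, adjusted p = 0.0139), and without C likewise, by 0.89 (adjusted p = 0.00112) in ESCs and by 0.81 (adjusted p = 0.00208) in EBs. Of its exons 10.3% overlap the pseudogene 1810014B01Rik on the other strand.

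Dnajb9, a J-domain cochaperone of BiP also known as ERdj4 (chr12:44205559-44210326, minus strand), was the least abundant of the 10 genes, with 42 to 123 reads a library. It had 49.5, 46.3 and 117 normalized counts in A, B and C of the KO ESCs, against 53.7, 47.3 and 148 in the WT ESCs, and 73.5 and 83.2 in the KO EBs against 94.2 and 94.7 in the WT EBs. The KO library was lower in each letter pair, but by little in A and B of the ESCs, and no fit called a difference between genotypes (ESC log2 difference -0.16, SE 0.52, adjusted p = 0.986; EB -0.27, SE 0.64, adjusted p = 1.00). With the replicate block it rose in EBs of KO (0.74, SE 0.16, adjusted p = 0.0193) and of WT (0.85, SE 0.16, adjusted p = 0.0117).

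Sdf2l1 encodes an ER protein that works with BiP and its J-domain partners (chr16:17130138-17132383, minus strand). The KO ESCs had 315, 212 and 236 normalized counts, against 716, 519 and 208 in the WT ESCs, and the KO EBs had 540 and 408 against 772 and 547 in the WT EBs. Replicates A and B of the KO ESCs were below those of WT and C was not, and in EBs the higher KO library lay just below the lower WT library. The log2 difference was -0.76 (SE 0.44, adjusted p = 0.464) in ESCs and -0.47 (SE 0.54, adjusted p = 0.914) in EBs, and without C it passed in ESCs (-1.24, SE 0.25, adjusted p = 0.00281).

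The disulfide isomerases Pdia4 and Pdia6, also known as ERp72 and P5, make and rearrange disulfide bonds in folding proteins, and their counts differed in pattern. Pdia4 (chr6:47796141-47813430, minus strand) had 2378, 2516 and 2341 normalized counts in the KO ESCs, against 3075, 3352 and 1710 in the WT ESCs, and 2235 and 2483 in the KO EBs against 2137 and 2263 in the WT EBs. Its groups overlapped in both cell states (-0.11, SE 0.25, adjusted p = 0.961 in ESCs; 0.10, SE 0.31, adjusted p = 1.00 in EBs). Without C it fell in the KO ESCs (-0.39, SE 0.08, adjusted p = 0.00358). Pdia6 (chr12:17266545-17284770, plus strand) had 1798, 1866 and 3827 normalized counts in the KO ESCs, against 4601, 4816 and 3544 in the WT ESCs, and 2550 and 2526 in the KO EBs against 4498 and 4625 in the WT EBs. A and B of KO were at 39.1% and 38.8% of their WT partners in ESCs and at 56.7% and 54.6% in EBs, while C of the KO ESCs was at 108% of its partner. The Pdia6 log2 difference was -0.87 (SE 0.30, adjusted p = 0.179) in ESCs and -0.85 (SE 0.36, adjusted p = 0.359) in EBs with all libraries, and it was not called with the replicate block (adjusted p = 0.0974 in ESCs and 0.178 in EBs). Without C it fell in the KO ESCs (-1.36, SE 0.06, adjusted p = 1.93e-06) and the KO EBs (-0.85, SE 0.06, adjusted p = 1.46e-05).

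Herpud1 encodes a membrane protein of the complex that moves misfolded proteins out of the ER (chr8:94386438-94395377, plus strand). Its counts were 221, 212 and 186 in the KO ESCs, against 336, 303 and 175 in the WT ESCs, and 352 and 339 in the KO EBs against 511 and 498 in the WT EBs. EBs were above ESCs in every library of each genotype, and the KO EBs were below the WT EBs. The KO minus WT log2 difference was -0.34 (SE 0.25, adjusted p = 0.601) in ESCs and -0.55 (SE 0.31, adjusted p = 0.536) in EBs, and it passed without C in both (-0.56, adjusted p = 0.0008 in ESCs; -0.55, adjusted p = 0.00102 in EBs). The difference between EBs and ESCs was 0.75 (SE 0.28, adjusted p = 0.296) in KO and 0.95 (SE 0.28, adjusted p = 0.154) in WT, and passed with the replicate block in KO (0.57, adjusted p = 0.0475) and in WT (0.77, adjusted p = 0.0175).

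Levels of different genes are compared per kilobase of exon. Hspa5 had the highest mean level in KO ESCs (1607 ± 787), in KO EBs (2101 ± 110) and in WT EBs (2179 ± 88.8 normalized counts per kb), and came after Atf4 in WT ESCs, where Atf4 had 1508 ± 25.2 and Hspa5 1307 ± 111. Atf4, Pdia4, Pdia6 and Hsp90b1 filled the next ranks, and in WT ESCs Hsp90b1, Pdia6 and Pdia4 lay at 1159 ± 442, 1154 ± 182 and 1131 ± 367, closer to each other than their SDs. Dnajb9 had the lowest mean level in each group and Herpud1 the next lowest, with 30.7 ± 2.71 in KO EBs and 37.1 ± 0.13 in WT EBs for Dnajb9.

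Across the 10 genes, none was called between KO and WT ESCs with all libraries, where 2.38% of all tested genes were called. A negative difference was seen for 9 of the 10 and for 51.4% of all genes. Xbp1 and Pdia6 had an unadjusted p under 0.05, edgeR called none of the 10 (2.39% of all genes) and DESeq2 called Xbp1 alone (12.4%). With the replicate block Xbp1, Ddit3 and Hsp90b1 fell in the KO ESCs, 3 of 10 against 29.3% of all genes, and without the C libraries all but Dnajb9 and Hspa5 fell, 8 of 10 against 55.2% of all genes in either direction and 27.8% lower. Xbp1 alone was lower in every KO than in every WT ESC library, as were 8.78% of all genes. Fewer cells of a type and less RNA per cell cannot be told apart in these bulk libraries.

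In EBs none of the 10 was called between KO and WT with all libraries (1.84% of all genes were), although Xbp1, Hsp90b1, Dnajb9, Sdf2l1, Pdia6 and Herpud1 were lower in both KO than in both WT libraries, 6 of 10 against 38.9% of all genes. Pdia6 alone had an unadjusted p under 0.05, and neither edgeR (1.83% of all genes) nor DESeq2 (9.83%) called any. Hsp90b1 alone fell with the replicate block, where 22.7% of all genes were called, and Pdia6, Herpud1, Hsp90b1 and Xbp1 fell without C, where 51.9% were called and 27.9% were lower. The 4 genes with overlapping groups in EBs, Hspa5, Pdia4, Atf4 and Ddit3, had KO means of 96.4% to 113% of WT. Counting letter pairs, KO was below WT in all 5 for Xbp1, Hsp90b1 and Dnajb9, and 18.9% of all genes were lower in all 5.

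**Figure D2:**
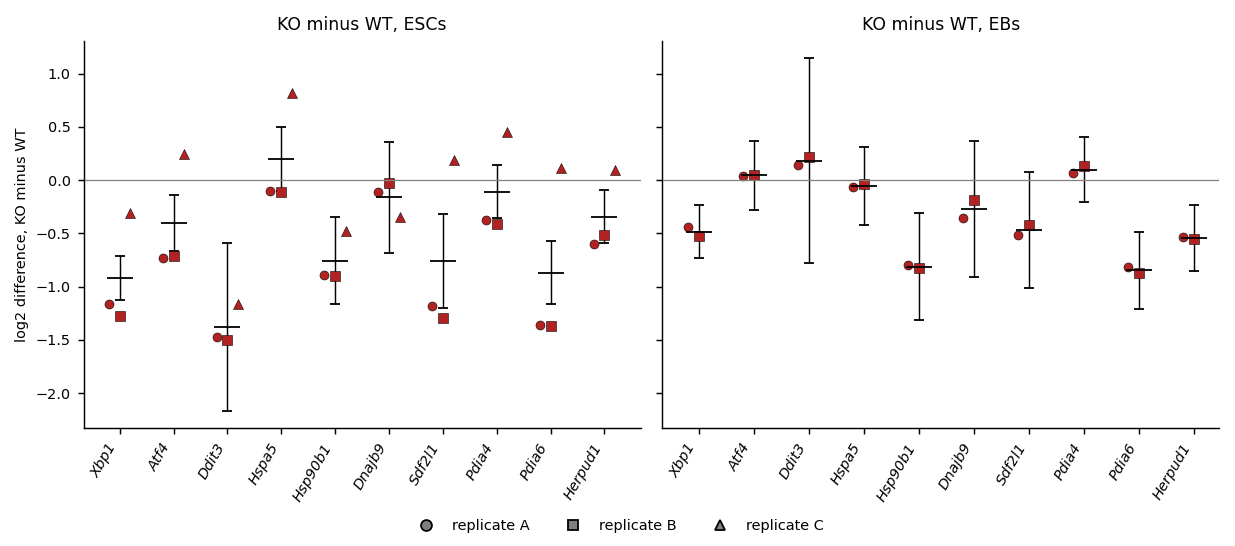
The log2 difference of each gene, KO minus WT, in ESCs (left) and EBs (right): points are letter pairs (circle A, square B, triangle C), and the black bar with whiskers is the limma difference with all libraries and its SE. In ESCs the triangle of Xbp1 lies nearer to 0 than the circle and square, the triangles of Atf4, Hspa5, Sdf2l1, Pdia4, Pdia6 and Herpud1 lie above 0, and in EBs the pairs of Hsp90b1 and Pdia6 lie furthest below 0.

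With all libraries Xbp1 was the 1 gene called of 10 in KO, where 0.805% of all genes were called, and in WT, where 2.48% were. With the block, Xbp1, Hspa5, Hsp90b1, Dnajb9, Ddit3 and Herpud1 rose in KO EBs, 6 of 10 against 28.2% of all genes in either direction. In WT EBs 5 of these rose and Ddit3 fell, 6 of 10 against 28.5%. Without C, all but Pdia4 rose in KO EBs (9 of 10, against 21.3% of all genes higher), whereas in WT EBs Xbp1, Hspa5, Dnajb9 and Herpud1 rose and Ddit3, Atf4 and Pdia4 fell (7 of 10, against 46.1% of all genes in either direction). Every EB library was above every ESC library for Xbp1, Sdf2l1, Ddit3 and Herpud1 in KO, and for Xbp1, Hspa5 and Herpud1 in WT (21.2% and 23.2% of all genes in KO and WT). Atf4 alone lay below in every WT EB library, as did 19.4% of all genes. The KO and WT comparisons of EBs with ESCs share no library.

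**Figure D3:**
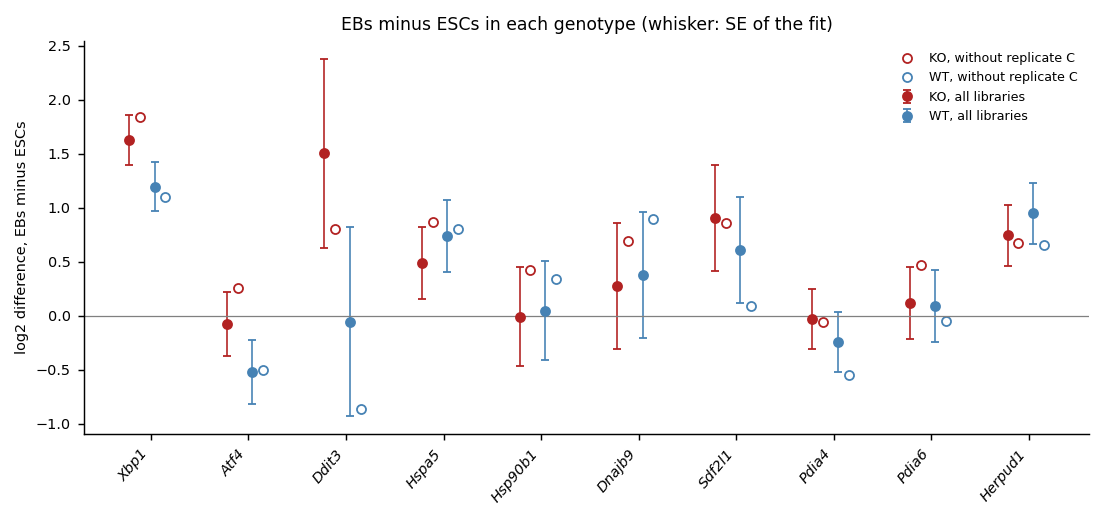
The log2 difference of each gene between EBs and ESCs, in KO (red) and WT (blue), with all libraries (filled, whisker SE) and without the replicate C libraries (open). The open points of Ddit3, Atf4 and Pdia4 lie higher in KO than in WT, and those of Xbp1 lie at 1.84 in KO and 1.10 in WT.

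Whether the KO effect differed between EBs and ESCs was tested as the difference of the 2 effects. None of the 10 passed with all libraries in limma (0.475% of all genes did), none had an unadjusted p under 0.05, and neither edgeR nor DESeq2 called any. With the replicate block Ddit3 passed, where 7.79% of all genes were called. Without C the differences of Ddit3 (1.67), Atf4 (0.77, adjusted p = 0.000366), Xbp1 (0.74, adjusted p = 0.00247), Pdia6 (0.52, adjusted p = 0.0027) and Pdia4 (0.49, adjusted p = 0.0108) passed, all higher in EBs, where 16.3% of all genes were called higher. For these genes the KO deficit seen in A and B of the ESCs was smaller or absent in EBs, while for Hsp90b1 (0.08, adjusted p = 0.796) and Herpud1 (0.01, adjusted p = 0.943) no difference of the effects was detected.

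Replicate C of the KO ESCs stood furthest above A and B for 5 of the genes. Relative to the mean of A and B it held 2.43 times the Hsp90b1, 2.43 times the Dnajb9, 2.18 times the Hspa5, 2.09 times the Pdia6 and 2.00 times the Atf4 counts. Replicate C of the WT ESCs held 1.82 times the Hsp90b1 and 2.94 times the Dnajb9 counts but 1.15 times the Hspa5, 0.753 times the Pdia6 and 1.02 times the Atf4 counts. For Sdf2l1, Pdia4 and Herpud1 the WT replicate C held 0.336, 0.532 and 0.546 times the mean of A and B, against 0.897, 0.957 and 0.860 times in KO. For these 5 and 3 genes the shift of C thus differed between the genotypes, and the KO minus WT difference of each was less negative, or more positive, in C than in A and B, apart from Dnajb9. Fibroblast markers summed to 605 in KO and 385 in WT in C, against 8860 or more in A and B. Neural markers summed to 3313 in KO and 6364 in WT in C, against 1622 or less in A and B. The markers of this list did not move alike. Stmn2 had its highest ESC values in C, 2105 in KO and 4753 in WT. Nes had its lowest there, 325 in KO and 178 in WT, and Sox1 was lowest in C in KO (5.55) but not in WT. The use of replicate C with the SILAC assay, its lower depth and its cell content cannot be told apart in these libraries.

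Ratios within a library, chosen after the values were seen, show how unequally related genes differed between the genotypes. The Hsp90b1 to Hspa5 ratio was 0.373, 0.434 and 0.451 in A, B and C of the KO ESCs, against 0.642, 0.748 and 1.11 in the WT ESCs, and 0.279 and 0.313 in the KO EBs against 0.464 and 0.540 in the WT EBs, so that no KO library reached a WT library of the same cell state. The Pdia6 to Pdia4 ratio was 0.756, 0.742 and 1.63 in the KO ESCs, against 1.50, 1.44 and 2.07 in the WT ESCs, and 1.14 and 1.02 in the KO EBs against 2.11 and 2.04 in the WT EBs. It was lower in KO in each letter pair, and in ESCs the groups overlapped through replicate C. The Ddit3 to Atf4 ratio was 0.174, 0.153 and 0.0188 in the KO ESCs, against 0.293, 0.263 and 0.0501 in the WT ESCs, and 0.261 and 0.217 in the KO EBs against 0.244 and 0.192 in the WT EBs. It was lower in KO in each ESC pair and higher in KO in both EB pairs, but the groups overlapped in both cell states. The Dnajb9 to Hspa5 ratio, the other of the 4 computed, showed little difference in A and B of the ESCs, with 0.0104 and 0.0093 in KO against 0.0104 and 0.00878 in WT. It was 0.011 in C of the KO ESCs against 0.0245 in C of the WT ESCs, and 0.00858 and 0.00903 in the KO EBs against 0.0105 and 0.00999 in the WT EBs. Because the ratios were picked after the values were seen, no test is given.

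**Figure D4:**
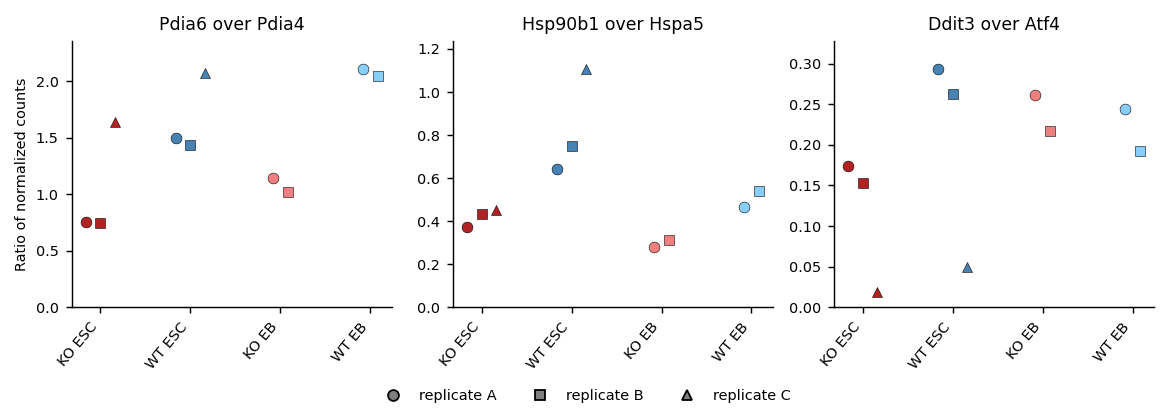
Ratios of normalized counts within each library for Pdia6 over Pdia4, Hsp90b1 over Hspa5 and Ddit3 over Atf4, in the order KO ESC, WT ESC, KO EB and WT EB, with points marked by replicate letter. Hsp90b1 over Hspa5 lies between 0.279 and 0.451 in the 5 KO libraries and between 0.464 and 1.11 in the 5 WT libraries.

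Other genes of the pathway were taken from 6 lists, described by the number called and by the median difference. In KO against WT EBs, none of 24 tested genes of protein translocation and ER export was called by limma with all libraries. Of the 24, 10 had an unadjusted p under 0.05, as did 2189 of all 15781 genes, edgeR called none and DESeq2 8 (9.83% of all genes). A negative difference was seen for 23, and the median was -0.80, against -0.02 over all genes, 51.2% of which were negative. With the replicate block 18 of the 24 fell, where 22.7% of all genes were called in either direction, and without C 23 did, where 27.9% of all genes were lower. In KO against WT ESCs the median of this list was -0.44 with 22 of 24 negative, against 51.4% of all genes. Kdelr3, which returns escaped ER proteins from the Golgi, fell there (-1.79, adjusted p = 0.0392). It had 133, 124 and 55.5 normalized counts in the KO ESCs, against 344, 332 and 339 in the WT ESCs. The most abundant gene of the list, Ssr2 of the translocon-associated complex, was at -0.33 in both cell states and was not called (adjusted p = 0.868 in ESCs and 0.995 in EBs).

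Genes of disulfide formation included 4 of 13 that fell in the KO EBs and none that rose (median -0.77, against -0.02 over all genes), where 1.84% of all genes were called. Of the 13, 8 fell with the replicate block and 10 without C, against the same 22.7% called and 27.9% lower over all genes. P4hb, the founding protein disulfide isomerase, had 3367 and 3378 normalized counts in the KO EBs, against 11883 and 12528 in the WT EBs, and 3505, 3545 and 4002 in the KO ESCs against 6083, 6032 and 5824 in the WT ESCs. It fell in EBs (-1.85, adjusted p = 0.00506) and in ESCs (-0.70, adjusted p = 0.0396). P4hb lies on chromosome 11 like Xbp1, and with chromosomes centred the EB difference was -1.42 (adjusted p = 0.0386) and the ESC difference -0.48 (adjusted p = 0.293). Qsox1, a sulfhydryl oxidase, had 309 and 296 normalized counts in the KO EBs against 883 and 796 in the WT EBs (-1.47, adjusted p = 0.0266). Pdia5 had 136 and 115 in the KO EBs against 314 and 333 in the WT EBs (-1.36, adjusted p = 0.0287). The P4hb call in EBs was lost when any EB library was left out (adjusted p of up to 0.108) and held without any 1 ESC library. That of Pdia5 in EBs (up to 0.279) and that of P4hb in ESCs (up to 0.178) were lost when any library but a replicate C was left out, and that of Qsox1 held in 3 of 10 such fits (up to 0.277). The Qsox1 call also failed with chromosomes centred (adjusted p = 0.0676). Pdia3, the most abundant gene of the list not called, was at -0.05 in ESCs and -0.93 in EBs (adjusted p = 0.945), and the EB difference passed with the replicate block (adjusted p = 0.0045) and without C (adjusted p = 1.92e-05).

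None of 16 further ER chaperones and cofactors was called by limma between KO and WT in either cell state with all libraries. Medians were -0.22 in ESCs and -0.59 in EBs, and 14 of 16 were negative in EBs, against 51.2% of all genes. With the replicate block 4 fell and 1 rose in ESCs (29.3% of all genes called), and 8 fell in EBs (22.7%). Without C 10 fell and 2 rose in ESCs (27.8% of all genes lower), and 11 fell and 1 rose in EBs (27.9%). With all libraries 3 of the 16 had an unadjusted p under 0.05 in ESCs (2710 of all 15781 genes), edgeR called none and DESeq2 1 (12.4% of all genes). In EBs 7 had (2189 of all genes), edgeR called none and DESeq2 4 (9.83%). Calnexin, Canx, the most abundant of them, had 4261 and 4657 normalized counts in the KO EBs against 9274 and 10523 in the WT EBs (-1.15, adjusted p = 0.0863), and it too lies on chromosome 11. The Canx difference in EBs passed with the replicate block (adjusted p = 0.0384), without C (adjusted p = 2.07e-05) and with DESeq2 (adjusted p = 0.00279), and with chromosomes centred it was -0.71 (adjusted p = 0.276). Among 9 sensors and processing factors, Creb3, an ER-anchored transcription factor, fell in the KO EBs (-1.34, adjusted p = 0.0287), with 206 and 196 normalized counts against 544 and 480 in the WT EBs. In ESCs it was at 256, 250 and 269 in KO against 184, 162 and 132 in WT, and the difference of the KO effects passed (-2.05, adjusted p = 0.0362). Neither Creb3 call held when any library but a replicate C was left out, with adjusted p of up to 0.299 in EBs and 0.330 for the difference of effects.

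Of 18 genes of ER-associated degradation none was called by limma with all libraries in KO against WT EBs (median -0.47, 15 negative, against 51.2% of all genes). Of the 18, 8 had an unadjusted p under 0.05 (2189 of all 15781 genes), edgeR called none and DESeq2 2 (9.83% of all genes). With the replicate block 9 fell and 1 rose, where 22.7% of all genes were called. Without C 12 fell and 1 rose, where 27.9% of all genes were lower. Of 25 genes of the ATF4 and CHOP arm, Atf3, a stress-induced transcription factor, fell in the KO EBs (-2.68, adjusted p = 0.0356), with 40.3 and 45.0 normalized counts against 276 and 282 in the WT EBs. The list's median in EBs was -0.08. Ppp1r15a, which encodes the phosphatase subunit GADD34 that ends the block on translation, fell in the KO ESCs (-0.79, adjusted p = 0.0392), with 294, 272 and 281 normalized counts against 476, 445 and 547 in the WT ESCs. The calls of Atf3, Ppp1r15a and Kdelr3 were each lost when any library but a replicate C was left out, with adjusted p of up to 0.316 for Atf3, 0.171 for Ppp1r15a and 0.152 for Kdelr3. Asparagine synthetase, Asns, the most abundant of the list, was at -0.26 in ESCs (adjusted p = 0.948) and -0.26 in EBs (adjusted p = 1.00).

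**Figure D5:**
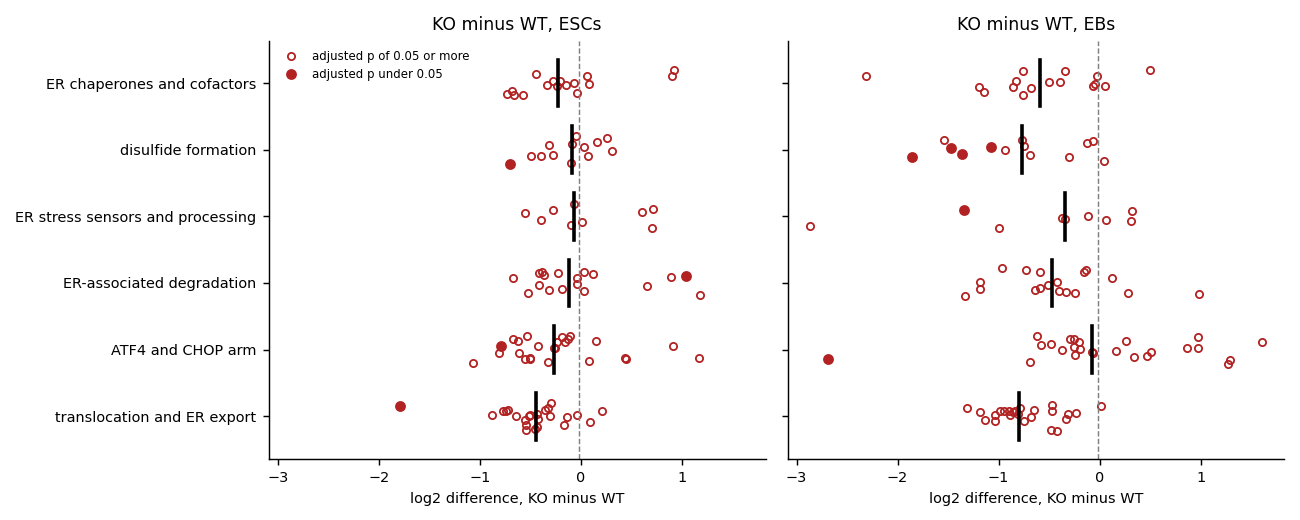
The log2 difference, KO minus WT, of each gene of the 6 pathway lists in ESCs (left) and EBs (right), with filled points for an adjusted p under 0.05, a black bar at the list's median and a dashed line at the median of all tested genes. In EBs the translocation and export list has its median at -0.80 and the ATF4 and CHOP list at -0.08.

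In WT EBs against WT ESCs, the genes of these lists that rose included Serpinh1 (3.68, adjusted p = 0.0314), the collagen chaperone, Dnajc10 (1.06), Qsox1 (1.45), P4hb (1.03), Creb3 (1.69) and Sec24d (1.09), a coat subunit for export of large cargo, and none fell. Serpinh1 had 13535 and 12385 normalized counts in the WT EBs against 1801, 1666 and 343 in the WT ESCs. In KO EBs against KO ESCs, Derl3 (2.08, adjusted p = 0.0474), a channel component of ER-associated degradation, and Kdelr3 (2.15, adjusted p = 0.0466) rose and none fell. Each of these calls in WT was lost without either WT EB library, with adjusted p of up to 0.434. Of the 10 fits that each leave out 1 library, the Creb3 call held in 8, those of Qsox1 and P4hb in 6, those of Serpinh1 and Sec24d in 2 and that of Dnajc10 in 1. Both calls in KO were lost without any library but a replicate C, with adjusted p of up to 0.510. Of these genes the difference of the KO effects, EBs minus ESCs, passed for Creb3 alone with all libraries, and that of P4hb passed with the replicate block (adjusted p = 0.0115).

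Markers of other cells moved with the EB comparison. The sum over 20 markers of primitive, parietal and visceral endoderm was 8623 and 8561 normalized counts in the KO EBs, against 201078 and 198748 in the WT EBs, and 10660 to 20921 in the KO ESCs against 10742 to 20230 in the WT ESCs. Of the 20 markers 15 fell in the KO EBs with all libraries, with a median of -5.28, and Afp had no read there. Col4a1, Lama1 and Sparc, the most abundant of them, averaged 880, 181 and 1220 in the KO EBs against 49741, 38107 and 28672 in the WT EBs. Summed pluripotency markers were 33705 and 29370 in the KO EBs against 21056 and 18871 in the WT EBs. Cardiac markers summed to 98.9 and 84.9 in the KO EBs against 438 and 366 in the WT EBs. Of 5 tested cardiac markers 1 fell, and Myh7 averaged 1.41 in KO against 273 in WT, while Myh6 averaged 27.6 against 24.8. Neural markers summed to 1645 and 1512 in the KO EBs against 1178 and 1178 in the WT EBs. Stmn2 averaged 772 in KO against 576 in WT, but 3 of 7 tested neural markers had a negative difference, among them Nes (132 against 235). Those of blood and endothelium summed to 1317 and 1369 in the KO EBs against 1421 and 1483 in the WT EBs, and those of fibroblasts to 4652 and 4502 in the KO EBs against 6277 and 6077 in the WT EBs. With all libraries no tested marker of pluripotent cells, neural cells, fibroblasts, or blood and endothelium was called between KO and WT EBs. Markers also differed in A and B of the ESCs, the libraries behind the values without C. There neural markers summed to 754 and 707 in KO against 1622 and 1536 in WT, and those of blood and endothelium to 930 and 944 in KO against 2047 and 2209 in WT. The part of these cells in the values of the 10 genes was not tested.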

How the data were processed

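Per the labels, libraries of poly(A) RNA were made with the TruSeq RNA kit v2, a kit without strand information. Per the submitters' processing notes, HTSeq 0.6.0 and DESeq were used along with TopHat2 2.0.10, Bowtie and CASAVA 1.8.2, on the build mm10. The annotation release, strand setting and filters are not given in the sources used here. The authors deposited 1 table of normalized signal, gene counts divided by a size factor for each library. Division by the smallest value above 0 gave whole reads for 100% of values within a tolerance of 0.01. Of 39179 identifiers, 37693 had a symbol in GENCODE M21 (GRCm38), and 5 lines that name no gene stayed out. Records in no gene made up 34.0% to 38.8% of a library's records, and alignments that were not unique made up 28.7% to 30.6% in replicate C and 36.9% to 46.1% elsewhere.

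One limma 3.58.1 fit of log2(normalized count + 1) over 15781 genes with a mean of 10 or more gave 4 group means with trended, robust variances and 6 residual degrees of freedom (3 with the replicate block within ESCs and within EBs). The spread behind the EB tests thus comes from all 4 groups, replicate C included. All tests were two-sided, and p-values were adjusted by the Benjamini-Hochberg method with a threshold of 0.05. On recovered reads, edgeR 4.0.16 called 377 genes and DESeq2 1.42.0 called 1959 in KO against WT ESCs, against 376 in limma. R was 4.3.3. Fold changes on the log2(count + 1) scale understate the change of low genes, and counting error is largest in replicate C, where 3 reads equal 8.33 to 9.88 normalized counts.

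Deviations from the group mean correlated across genes between KO and WT ESCs of the same letter (r = 0.845, 0.828 and 0.858 for A, B and C, above 0.1), so the ESC letters were taken to pair the libraries; A with B gave 0.809 and 0.812, so this rests mostly on C. In EBs r was 0.369, with too few pairs to decide, and whether letters pair ESCs with EBs was not checked. The members, lists, markers and motifs were chosen with earlier results of these data known. Named list genes were up to 3 per list, comparison and direction with the largest called difference and at least 100 normalized counts on average where they were higher, plus the most abundant not called. Some genes that these rules name are not reported here. The fits were tested on simulated counts with known changes. Alternatives were other filters, pseudocounts of 0.5 and 5, TMM scaling, the block, each library left out, both replicate C libraries left out, only the groups compared, plain variances, chromosome centring, edgeR and DESeq2.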

Additional observations from a re-analysis of the deposited data

Results flagged for a closer look

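The Ddit3 difference between KO and WT differed between EBs and ESCs in the fit with the replicate block. The difference of the KO effects, EBs minus ESCs, was 1.56 on the log2 scale (SE 0.16, limma adjusted p = 0.0119). That fit called 7.79% of all tested genes for this difference, and neither edgeR nor DESeq2 called Ddit3. KO was lower than WT in 3 of 3 ESC letter pairs and higher in 2 of 2 EB pairs. The EB groups overlapped, with 568 in KO replicate B against 593 in WT replicate A. Whether letters pair the EB libraries could not be decided. With all libraries and no block the same difference had an SE of 1.24 and an adjusted p of 1.00, and replicate C of both genotypes was several times lower than A and B. The groups of 2 and 3 libraries were too small for Dixon's test of an outlying library.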

How the results depend on the processing

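Of 1040 values of the 10 genes under the alternatives, 903 kept their direction and side of the threshold, 61 newly passed, 22 no longer passed and 54 changed sign. In the order KO against WT in ESCs, KO against WT in EBs, EBs against ESCs in KO, EBs against ESCs in WT, and the difference of the KO effects, the main fit called 376, 290, 127, 392 and 75 genes, the fit with the replicate block 4627, 3578, 4444, 4490 and 1230, the fit without both replicate C libraries 8715, 8196, 7465, 7278 and 5703, and DESeq2 1959, 1552, 1419, 1525 and 774. Of the 10 genes the main fit called 0, 0, 1, 1 and 0, the replicate block 3, 1, 6, 6 and 1, and the fit without C 8, 4, 9, 7 and 5. DESeq2 called 1 in KO against WT ESCs, 1 in KO EBs against ESCs, 2 in WT EBs against ESCs and none in the other comparisons. With the 2 groups compared alone, limma called 0, 7768, 0 and 60 genes in the 4 comparisons of groups (at an unadjusted p under 0.05, 1603 in KO against WT ESCs and 1830 in KO EBs against ESCs) and 0, 4, 0 and 0 of the 10. Chromosome centring called 0 of the 10 in either comparison of EBs with ESCs, and plain variances 0 in WT. Keeping all genes with a mean above 0 gave 45 genes in KO against WT ESCs, 1351 in KO against WT EBs and 1655 in WT EBs against ESCs. In KO EBs against ESCs a pseudocount of 5 gave 215, plain variances 231 and edgeR 194. For the difference of effects a pseudocount of 0.5 gave 45, a pseudocount of 5 gave 166 and TMM scaling 46. Leaving out each library gave 0 to 2177, 0 to 1162, 0 to 947, 5 to 1206 and 0 to 497 genes, and 0 to 3, 0 to 1, 0 to 2, 0 to 3 and 0 to 1 of the 10.

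None of the values that changed sign was called with all libraries. In KO against WT ESCs Hspa5 was at -0.11 without C, and leaving out single libraries gave -0.18 to 0.40 for Hspa5, -0.41 to 0.072 for Pdia4 and -0.58 to 0.35 for Dnajb9. In KO against WT EBs Hspa5 was at 0.017 with TMM and at -0.11 to 0.00061 with libraries left out. In KO EBs against ESCs Hsp90b1 was at 0.030 with TMM, 0.35 with the block, 0.42 without C and -0.29 to 0.42 with libraries left out, Pdia4 at 0.0066 with TMM and -0.11 to 0.042, Pdia6 at -0.0024 with chromosomes centred and -0.075 to 0.47, and Atf4 at 0.098 with the block, 0.26 without C and -0.25 to 0.26. In WT EBs against ESCs Hsp90b1 was at -0.038 with chromosomes centred, -0.011 with DESeq2 and -0.17 to 0.34 with libraries left out, Pdia6 at -0.045 without C, -0.067 centred and -0.045 to 0.18, and Ddit3 at -0.86 to 0.38. For the difference of the KO effects, Hspa5 was at 0.057 without C (-0.45 to 0.12 with libraries left out), Hsp90b1 at 0.0028 with TMM and 0.082 without C (-0.35 to 0.37), Pdia6 at -0.072 with edgeR and -0.052 with DESeq2 (-0.17 to 0.38), Herpud1 at 0.015 without C (-0.38 to 0.086), Dnajb9 at -0.62 to 0.31 and Sdf2l1 at -0.079 to 0.81. The cause of these changes was not tested. Depth limits Dnajb9, with 42 to 123 reads a library, and Ddit3 in replicate C, with 29 reads in its lowest library.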

Other observations

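The tested genes most alike to Hspa5 by Pearson's r of log2(count + 1), members aside, were Dnmt3a (0.981), Rab27a (0.966), Chst1 (0.963), Zfp618 (0.959) and Shroom4 (0.958) over the 10 libraries. Over the 8 libraries other than replicate C they included Pde4d (0.995), the ER oxidase gene Ero1lb (0.994), Ptgs2 (0.993) and Enpp3 (0.993). Those most alike to Atf4 were Bcas1 (0.986), Mns1 (0.979), Acaca (0.975), Psma8 (0.970) and Slc30a2 (0.961) over 10 libraries, and Lrrc2 (0.994), Bcas1 (0.991), Rrn3 (0.987), Rpl36-ps12 (0.986) and Oard1 (0.985) over 8. Libraries of a group share their culture, and 45 genes over 10 libraries and 509 over 8 had r above 0.9 with Hspa5, 48 and 234 with Atf4, so these values are a description. Of the genes given here, Bcas1 was named over both sets of libraries.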
